A study of Mus musculus with 6 samples.

Results

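The genes described here are 10 genes of glucose use and of the response to low oxygen, measured in sorted mouse mammary cells. They were chosen by name, as all probes that the array design assigns to them: 18 probes of 55681, and 10 genes of 34964 named on the array. The glycolytic enzymes Hk2, Pfkp, Aldoa, Pgk1, Eno1 and Ldha make up 6 of them. The other 4 genes are targets of the low-oxygen response outside the enzyme chain: Slc2a1, Vegfa, Bnip3 and Egln3.

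Cells short of oxygen stabilise the hypoxia-inducible factors, because the prolyl hydroxylases that mark these factors for destruction need oxygen. The factors then bind short DNA elements near genes for glucose uptake, glycolysis, vessel growth and mitochondrial removal. Macrophages are known to rely on glycolysis when activated, and basal mammary cells also use glucose for growth, so these genes are often read in both cell types.

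Expression was measured on 6 two-colour arrays. One pair held CD24+CD29hi cells, which the labels call MaSC, from virgin C57/B6:Dll1-mCherry female mice, in which a red reporter marks Dll1, a Notch ligand. The mCherry+ cells (Dll1-high) and the mCherry- cells (Dll1-low) had 1 array each. The other arrays held F4/80+ macrophages from mammary glands of virgin female mice: Dll1-conditional KO animals (C57/B6:cKO-Dll1) and their wild type littermates (C57/B6), with 2 arrays each, called KO 1, KO 2, WT 1 and WT 2. The labels do not give the cells or exons that lose Dll1 in the conditional KO, and do not say whether the arrays of a group came from separate animals, so p-values measure only the spread between these arrays, which may be technical. Every sample was labelled with Cy5 and set against RNA pooled from several mouse cell lines (the universal reference), labelled with Cy3. Dyes were never swapped. All levels below are log2 ratios of sample over reference, so 0 means a level equal to the reference and -1 means 2-fold below it.

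The arrays differed in quality in ways that touch these genes. The CD24+CD29hi arrays shared slide 1 and the macrophage arrays slide 2, so that cell type, slide, scan and scanner software version cannot be told apart. On slide 2 the KO 1 and WT 1 arrays lay in row 1, and KO 2 and WT 2 in row 2, so replicate number and slide row cannot be told apart either. Both KO arrays lay in column 4 and both WT arrays in column 3, and the Dll1-high and Dll1-low arrays in columns 3 and 4 of slide 1, so slide column cannot be told apart from genotype or Dll1 state. The share of probes well above background in Cy5 was 86.0% and 88.1% on the CD24+CD29hi arrays and 47.4% to 71.9% on the macrophage arrays. Macrophage markers had a median log2 ratio of 3.57, 3.59 and 3.57 on KO 1, KO 2 and WT 2, of 1.87 on WT 1, and of 0.15 and 0.07 on the Dll1-high and Dll1-low arrays. Basal mammary markers had medians of 4.52 and 3.86 in the CD24+CD29hi cells and 0.29 to 0.63 in the macrophages. All 12 macrophage markers were above background on every array. The main Dll1 probe read 0.80 on KO 1, 2.25 on KO 2, 0.78 on WT 1 and 3.24 on WT 2; since the deleted part of Dll1 and the cells that lose it are not given, this does not check the labels.

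The promoters of 4 members are shown because they carry the short element that hypoxia-inducible factors are known to bind. The windows are the 250 bases before the transcription start in RefSeq, build GRCm38.p6, written 5′ to 3′ on the gene's strand. Capitals mark every match to ACGTG or GCGTG on either strand; on the opposite strand these read CACGT and CACGC, and the letters CACGTG count as a match on both strands.
Pgk1 promoter, chrX:106186850-106187099, plus strand: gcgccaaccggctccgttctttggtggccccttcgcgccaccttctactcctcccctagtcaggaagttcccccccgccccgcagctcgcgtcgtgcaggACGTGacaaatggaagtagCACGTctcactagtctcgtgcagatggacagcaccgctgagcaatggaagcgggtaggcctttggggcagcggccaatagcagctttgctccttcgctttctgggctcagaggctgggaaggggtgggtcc
Ldha promoter, chr7:46845554-46845803, plus strand: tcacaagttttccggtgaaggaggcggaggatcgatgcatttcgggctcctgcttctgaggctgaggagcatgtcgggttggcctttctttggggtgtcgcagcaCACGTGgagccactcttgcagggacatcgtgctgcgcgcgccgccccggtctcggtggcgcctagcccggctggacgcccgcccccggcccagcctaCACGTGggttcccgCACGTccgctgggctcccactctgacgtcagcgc
Slc2a1 promoter, chr4:119108495-119108744, plus strand: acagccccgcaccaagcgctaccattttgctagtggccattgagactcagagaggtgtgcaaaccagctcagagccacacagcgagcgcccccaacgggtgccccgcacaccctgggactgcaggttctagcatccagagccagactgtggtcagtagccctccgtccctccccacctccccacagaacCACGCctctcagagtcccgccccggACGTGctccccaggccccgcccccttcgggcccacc
Bnip3 promoter, chr7:138909507-138909756, minus strand: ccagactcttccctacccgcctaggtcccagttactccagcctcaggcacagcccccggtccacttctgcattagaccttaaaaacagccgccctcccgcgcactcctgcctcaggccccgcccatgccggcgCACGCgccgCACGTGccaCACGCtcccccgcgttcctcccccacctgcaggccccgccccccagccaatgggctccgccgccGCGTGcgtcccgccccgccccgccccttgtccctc

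Counted in bases from the start, matches began at -150 and -131 in Pgk1 and at -61 and -36 in Slc2a1. At least 1 match lay in 14 of the 16 member windows (87.5%), against 38.6% of all 32851 windows. Counted by gene, 10 of 10 members had a match in some window, against 41.5% of 27025 genes. Windows 1 and 2 of Aldoa overlap, as do windows 1 and 2 of Eno1, so their shared matches count in both windows. Window 2 of Vegfa and window 3 of Aldoa had 0 matches. Vegfa counts only through its window 1 (chr17:46025164-46025413, minus strand), which lies downstream of its window 2 (chr17:46032378-46032627). The 2 matches of Vegfa may therefore lie inside the gene and not in a promoter, so the count of 10 of 10 does not show 10 promoters with the element. The members are known targets of the factors, and a match describes the letters only.

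In macrophages the enzymes and the other targets read alike on KO 2 and WT 2, and differed between KO 1 and WT 1. No member passed limma's test between the genotypes. Of 25040 genes tested, 0 passed an adjusted p of 0.05 (limma, Benjamini-Hochberg), which is 0% of genes, and 32 had an unadjusted p under 0.05, which is 0.128%; 0 of the 10 members were among either. With 2 arrays against 2, an exact permutation test of 1 gene cannot go below a two-sided p of 0.333. In bulk samples, fewer cells of a type and less RNA per cell cannot be told apart.

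Hk2 catalyses the first step of glycolysis. Its log2 ratios were -0.56 on KO 1, 0.01 on KO 2, 0.52 on WT 1 and -0.28 on WT 2. The KO arrays overlapped the WT arrays, with WT 1 the highest. The difference of KO minus WT was -0.39 (SE 0.46, 95% interval -1.64 to 0.86, limma, adjusted p = 0.999).

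Pfkp is the platelet form of phosphofructokinase, the committing step of the pathway. Its main probe gave -0.64 and -1.33 on KO 1 and KO 2, and -1.04 and -1.35 on WT 1 and WT 2. The difference was 0.21 (SE 0.40), and the second Pfkp probe gave 0.27. The groups overlapped on the main probe. WT 1 was not the highest here, unlike at most other members.

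Aldoa splits the phosphorylated sugar into triose phosphates. It gave -1.38 on KO 1, -1.92 on KO 2, 0.45 on WT 1 and -1.97 on WT 2. KO 2 and WT 2 differed by 0.05, whereas KO 1 minus WT 1 was -1.82, and the mean difference was -0.88 (SE 0.91). WT 1 stood apart from the other 3 arrays.

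Pgk1 makes the first ATP of the pathway. Its main probe read -2.95 and -2.85 on KO 1 and KO 2, and -0.72 and -2.82 on WT 1 and WT 2. It was the only member with both KO arrays below both WT arrays, which 13.5% of all genes also showed; 0 members had both above, against 6.66%. That call rests on a gap of -0.03 in row 2, while row 1 gave -2.24. KO minus WT was -1.13 (SE 0.79, 95% interval -3.29 to 1.02, limma, adjusted p = 0.999), and without WT 1 it was -0.085. The main probe maps, in the mm9 coordinates of the files, to chr3:57906830-57906894, while the second maps to chrX:103398646-103398700, the chromosome of the RefSeq promoter above. The main probe may therefore share signal with a near-identical copy, and its level is uncertain; the second probe gave -2.42 in row 1 and -0.12 in row 2.

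Eno1 carries out the step before the last in the chain. Its ratios were -1.14, -1.70, 0.54 and -1.71 on KO 1, KO 2, WT 1 and WT 2. The genotypes differed by -0.84 (SE 0.86), with -1.68 in row 1 and 0.01 in row 2. Its only probe maps to chr2:80678866-80678925 in mm9 and the RefSeq windows of Eno1 lie on chromosome 4, so it may also read a copy and its level is uncertain.

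Ldha turns pyruvate into lactate. Its main probe gave -2.08, -1.93, -1.51 and -2.02 on KO 1, KO 2, WT 1 and WT 2. The genotype difference was -0.25 (SE 0.36), the nearest to 0 of the members that lay below it. The other Ldha probes gave -0.73 and -0.47, so the 3 probes shared a sign but differed in size.

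Slc2a1 is the GLUT1 glucose transporter. It gave -1.64 and -1.07 on KO 1 and KO 2 and -1.23 and -0.80 on WT 1 and WT 2. KO lay below WT in both rows, with differences of -0.41 and -0.27, and the groups overlapped. KO minus WT was -0.34 (SE 0.39), and it was -0.056 without KO 1, -0.63 without KO 2, -0.56 without WT 1 and -0.13 without WT 2.

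Vegfa is the main growth factor for vessels. Its main probe read -0.52, -0.24, 0.89 and -0.32 on KO 1, KO 2, WT 1 and WT 2. On that probe the genotype difference was -0.67 (SE 0.53), while the second Vegfa probe gave 0.26. The probes disagreed in sign, and WT 1 was the highest array on the main probe and the lowest on the second (-1.12).

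Bnip3 acts at mitochondria marked for removal. Its main probe gave -3.38, -3.54, -1.72 and -3.40 on KO 1, KO 2, WT 1 and WT 2. WT 1 stood above the other 3 arrays. The difference was -0.90 (SE 0.66), with -1.66 in row 1 and -0.14 in row 2. The second probe gave -1.48. The remaining probe gave 0.13, and its KO 2 spot was near background in both channels.

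Egln3 is a prolyl hydroxylase that both responds to hypoxia-inducible factors and marks them for destruction. Its main probe gave 0.19, -3.62, -2.0 and -3.47 on KO 1, KO 2, WT 1 and WT 2, a KO minus WT of 1.02 (SE 1.45). The KO 1 spot was near background in both channels: its Cy3 signal was 21.5, against 1986 to 3716 on the other arrays, and its Cy5 signal was 69.0. The reference RNA is the same on every array, so the ratio there is not a level of Egln3. With that value left out, an alternative added after the data were seen, KO minus WT was -0.88. The second probe gave -0.49. That Bnip3 probe had a Cy3 signal of 22.5 on KO 2. These 2 spots of 108 member values fell at least 4-fold below the median reference signal; over all arrays such probes were 647 (1.75%) on KO 1, 319 (0.864%) on KO 2 and 2 to 7 on the others. Hk2 on KO 1 had a Cy3 of 1390, against 4920 to 6741 elsewhere.

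**Figure D1:**
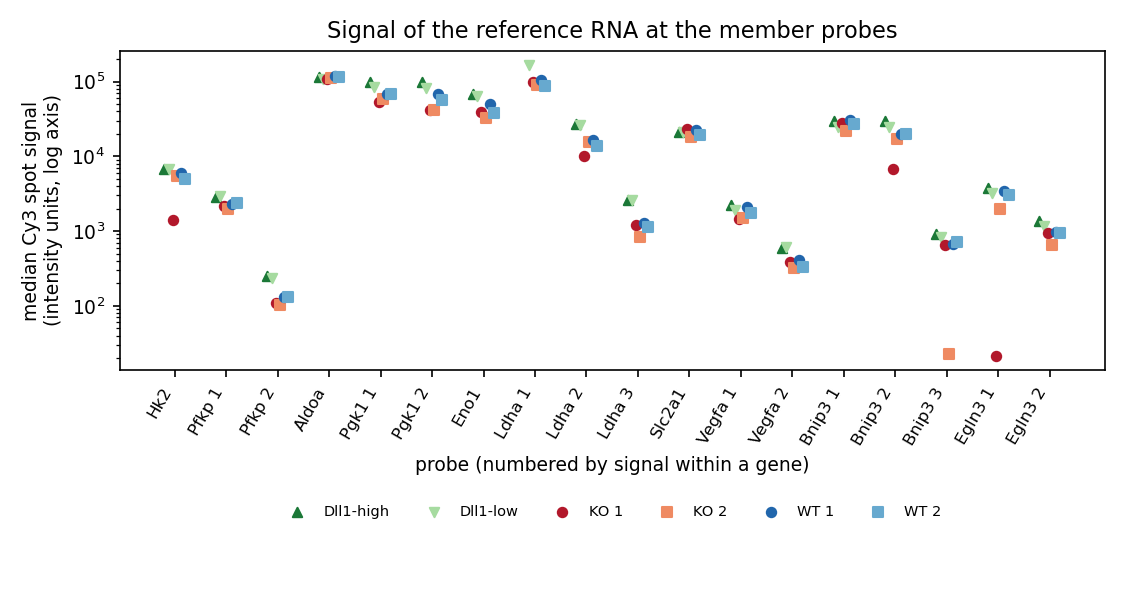
Median Cy3 spot signal (intensity units, log axis) of the shared reference RNA at each of the 18 member probes on the 6 arrays. Bnip3 probe 3 on KO 2 (22.5) and the first Egln3 probe on KO 1 (21.5) lie far below the same probe on the other arrays.

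**Figure D2:**
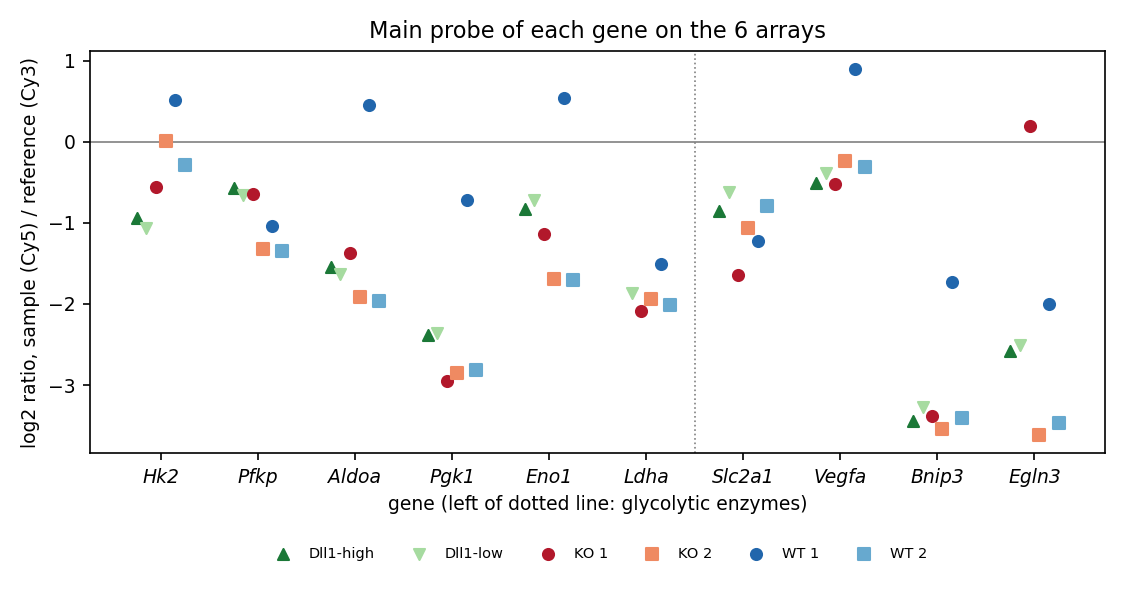
Log2 ratio of sample over reference for the main probe of each member on the 6 arrays, 1 point per array. WT 1 is the highest of the 4 macrophage arrays for 7 of the 10 members.

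Read across members, 8 of 10 had a KO mean below the WT mean, against 59.9% of all genes; with the weak Egln3 value left out it was 9 of 10, against 60.1%. Further, 3 of 10 (Pgk1, Slc2a1 and Bnip3) lay below in both rows, against 30.1%. KO 1 lay at least 2-fold below WT 1 for 6 of 10 members, against 18.1% of genes. KO 2 and WT 2 differed at least 2-fold for 0 of 10 members, against 0.878%. The median KO minus WT was -0.61 over the 6 enzymes and -0.51 over the other 4 targets, beside -0.10 over all genes. With the weak Egln3 value left out, the other 4 targets had -0.78, lower than the enzymes, and the 10 members -0.75. In row 1 these medians were -1.38 and -0.91 (-1.42 over the 3 other targets without the weak Egln3 value), beside -0.16, and in row 2 they were 0.04 and -0.14, beside -0.01. Without WT 1, the median over the 10 members was 0.0069 in place of -0.53. Which of the enzymes and the other targets had the lower median thus depended on 1 spot. WT 1 was the highest macrophage array for 7 of 10 members and for 43.4% of genes.

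**Figure D3:**
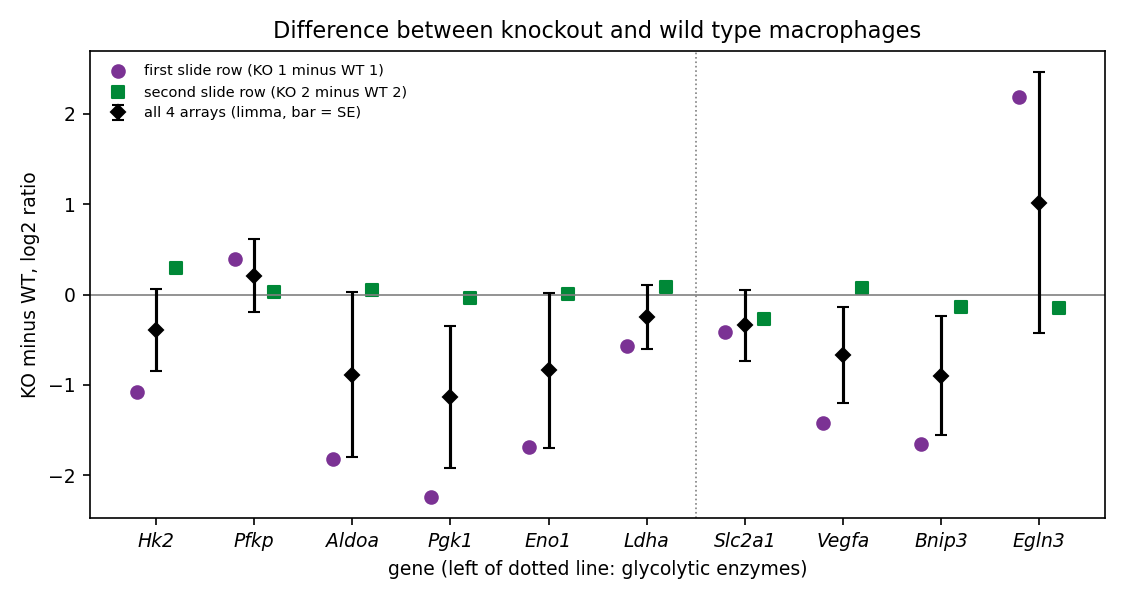
KO minus WT in log2 ratio for each member: limma's estimate over 4 arrays with its SE, and the difference within each slide row. The points of the second row lie between -0.27 and 0.29, while those of the first run from -2.24 to 2.19, the last being the weak Egln3 spot.

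The direction in row 1 depended on the intensity-dependent normalisation (loess), which removes a trend of the ratio with brightness on each array. Before it, KO 1 lay above WT 1 on 10 of 10 main probes, from 0.47 for Pgk1 to 4.32 for the weak Egln3 spot. Over all member probes, KO 1 lay above WT 1 on 16 of 18 before loess and below WT 1 on 14 of 18 after it. Without the weak Egln3 spot these counts were 15 of 17 probes above before loess and 14 of 17 below after it. Loess raised the members' main probes by 2.10 to 2.85 on WT 1, by 0.54 to 0.82 on KO 2 and by 0.29 to 0.63 on WT 2, and moved them by -0.01 to 0.08 on KO 1. On WT 1 the brightest 5% of probes had a median ratio of -2.60 before loess, against -0.78 to 0.41 on the other arrays. Over all genes tested, the median of KO 1 minus WT 1 was 0.96 before loess and -0.16 after it. For the members it was 1.25 before and -1.25 after. In row 2 the members' medians were -0.22 before loess and 0.02 after. With each array centred on its median in place of loess, KO minus WT was above 0 for all 10 members, with a median of 0.68 beside 0.47 for all genes. The sign of the members' difference in row 1 is therefore not settled by these arrays.

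**Figure D4:**
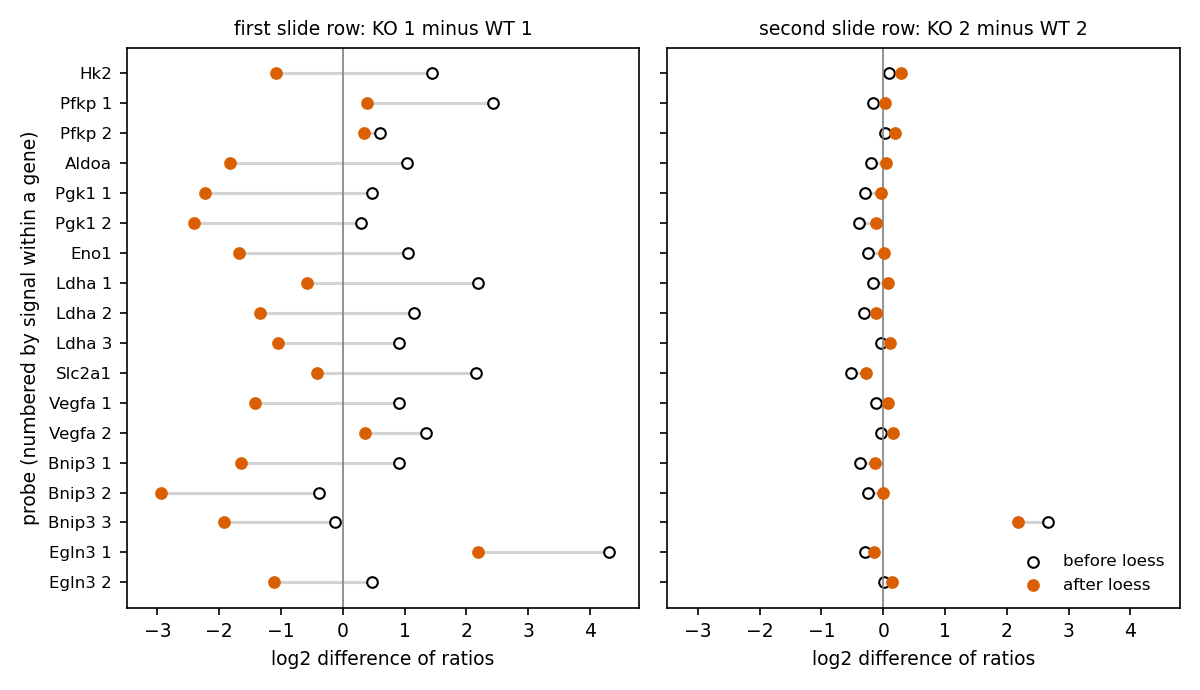
Difference of KO minus WT in each slide row at the 18 member probes, before (open) and after (filled) loess. In row 1 the points lie above 0 for 16 probes before loess and below 0 for 14 after it; in row 2, 17 of 18 lie within 0.3 of 0 after it.

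WT 1 also differed in markers of other cells, and in its ratios over all genes. Genes with a log2 ratio below -1 on WT 2 had a median WT 1 minus WT 2 of 0.67. For genes above 1 on WT 2 it was -0.98. KO 1 minus WT 2 had medians of -0.06 and -0.44 for the same genes, and KO 2 minus WT 2 of 0.04 and -0.07. The part of this array-wide pattern in the values of the markers and members was not tested. The median log2 ratio of the fibroblast markers was 0.81 on WT 1 and -1.15 to -0.44 on the other macrophage arrays, and 9 to 10 of the 10 markers were above background on each. Summed Cy5 signals of these markers were 135792 on WT 1 and 32477 to 49477 on the other 3. Adipocyte markers summed to 191796 on WT 1, 103818 on KO 2, 122632 on WT 2 and 780 on KO 1, where 4 of 7 were above background and the Fabp4 spot was left out. Their median log2 ratio was 0.28 on WT 1, the lowest of the 4 arrays, against 0.46 to 1.0, so the sum and the median order the arrays differently; Lep was not above background on any macrophage array. The luminal markers, all 10 above background on every array, had a median of 1.36 on WT 1 and 0.43 to 0.51 on the other 3. The neutrophil markers, 5 or 6 of 7 above background, had a median of 0.14 on WT 1 and 1.45 to 2.21 on the others. Their summed signals gave another order, with 203440 on WT 1, the highest, and 71626 to 142419 on the others. Endothelial markers, all 8 above background on every array, summed to 13632 and 28201 on KO 1 and KO 2 and to 27078 and 71729 on WT 1 and WT 2. Their part in the members' values was not tested.

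Replicate 2 was compared with replicate 1 over both genotypes, a contrast that is also row 2 against row 1. Of 24766 genes, 0 passed limma's adjusted p of 0.05 (0%) and 3990 had an unadjusted p under 0.05 (16.1%), among them Eno1 and Egln3, 2 of 10 members. The difference was below 0 for 9 of 10 members, against 13169 of 24766 genes. Without the weak Egln3 spot it was below 0 for 8 of 9, against 53.2% of genes. It was -1.48 (SE 0.56) for Aldoa, -1.40 (SE 0.52) for Eno1 and -1.0 (SE 0.62) for Pgk1, with limma adjusted p-values of 0.311, 0.309 and 0.475. WT 1 carried most of these: WT 1 minus WT 2 was 2.42 for Aldoa, 2.25 for Eno1 and 2.10 for Pgk1. For the same genes KO 1 minus KO 2 was 0.54, 0.55 and -0.10. With median centring in place of loess the contrast was -0.22 for Aldoa, -0.27 for Eno1 and 0.15 for Pgk1. Slc2a1 was the exception, at 0.50 (SE 0.34). The value of -2.64 for Egln3 rests on the weak KO 1 spot. Both replicates 2 lay below both replicates 1 for 5 of 10 members (Pfkp, Aldoa, Eno1, Bnip3 and Egln3), against 31.6% of genes, and for 4 of 9 without the weak spot. The enzymes had a median of -0.75 and the other targets of -0.69 (-0.46 without the weak spot), beside -0.05 for all genes.

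In the CD24+CD29hi cells the Dll1-high and Dll1-low arrays read nearly alike. With 1 array each there is no test. Dll1 itself read 3.94 in Dll1-high and 3.26 in Dll1-low cells on its main probe, a difference of 0.68. Its second probe differed by 0.14. Hk2 was -0.94 in Dll1-high and -1.06 in Dll1-low cells, Pgk1 was -2.38 and -2.36, and Aldoa was -1.54 and -1.63. Slc2a1 was -0.85 and -0.62, Vegfa -0.51 and -0.39, Bnip3 -3.45 and -3.27, and Egln3 -2.58 and -2.51. The main Ldha spot was left out on the Dll1-high array, and its other probes differed by 0.04 and 0.03. No measured member differed 2-fold, a size that 0.0933% of 32150 genes exceeded upward and 0.103% downward. Dll1-high was lower for 6 of 9 members, against 56.0% of genes. By role, 3 of 5 enzymes were higher, with a median of 0.08, and 4 of 4 other targets were lower, with a median of -0.15. That tally did not hold throughout: Egln3 was 0.027 with processed signals and the value table, and with Cy5 alone Egln3 was 0.055, Vegfa 0.00088 and the enzyme median 0.010. Markers of some other cell types were lower on the Dll1-high array too: 9 of 10 fibroblast markers (median -0.61), 8 of 10 luminal (-0.30), 7 of 8 endothelial (-0.28) and 6 of 7 adipocyte markers (-0.31). Others differed less or went the other way: 8 of 12 macrophage markers (-0.08), 3 of 5 neutrophil (-0.09) and 0 of 3 erythroid markers (0.13) were lower. Their part in the members' values was not tested. Spots of 1 probe repeated 10 times on these arrays gave this difference a median SD of 0.112, with a 95th percentile of 0.242 over 367 probes. That SD covers noise between spots only, not the spread between samples, so it sets no limit for a difference in Dll1 state. The main probes lay between -0.23 and 0.12. Bnip3 probes 2 and 3 gave -0.27 and -0.46 and the second Egln3 probe -0.30, and the second Vegfa probe (0.12) had the opposite sign to the first.

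**Figure D5:**
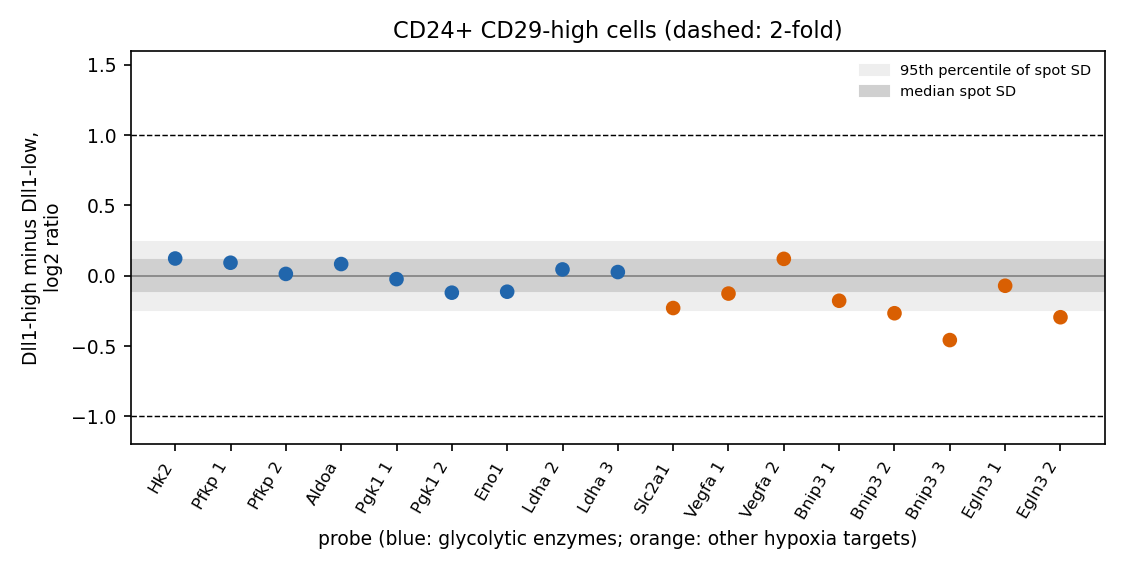
Dll1-high minus Dll1-low in log2 ratio at the 17 member probes measured on both arrays, with bands for the median (0.112) and 95th percentile (0.242) of the SD between repeated spots. Of the 8 probes of the other targets, 7 lie below 0; no probe reaches the 2-fold lines.

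Between cell types, most members overlapped. Hk2 was lower on both CD24+CD29hi arrays (-0.94 and -1.06) than on any macrophage array (-0.56 to 0.52), a pattern of 19.2% of genes; 1 of the 9 members measured on all 6 arrays showed it. None of the 9 lay above all 4 macrophage arrays, against 16.0% of genes. Slide and cell type cannot be told apart here. The set of non-overlapping members changed with the normalisation: Hk2 overlapped with median centring and with Cy5 alone. Pfkp was higher in the CD24+CD29hi cells with processed signals, the value table and the mean of all probes, as were Pgk1, Eno1 and Slc2a1 with median centring. With Cy5 alone Aldoa, Vegfa and Bnip3 were lower.

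Other genes of the same pathways gave the surroundings of these values. Of 21 other glycolysis genes, 15 were lower in KO macrophages and 6 higher (59.9% of all genes were lower). Their median was -0.11, and none passed limma's test. KO lay below WT in both rows for 4 of the 21, against 30.1% of genes, and above in both for 2. Both KO arrays lay below both WT arrays for 2 of the 21, against 13.5%, and above for 2, against 6.66%. Pfkm, the muscle phosphofructokinase, had a KO minus WT of -1.30, Pfkl, the liver form, of -0.79, and Pfkfb4, which makes an activator of phosphofructokinase, of 0.83. Row 1 carried these: Pfkm was -2.45 in row 1 and -0.16 in row 2, Pfkl -1.80 and 0.23, and Pfkfb4 1.58 and 0.09. Of 26 other hypoxia-induced genes, 22 were lower and 4 higher, against the same 59.9%, with a median of -0.47, -0.90 in row 1 and -0.02 in row 2. KO lay below WT in both rows for 13 of the 26, against 30.1% of genes. It lay above in both rows for 2 of the 26, against 4632 of 25040 genes. Both KO arrays lay below both WT arrays for 8 of the 26, against 13.5%, and above for 0, against 6.66%. Angptl4, a lipase inhibitor, had -1.65, Car12, a carbonic anhydrase, -0.91, and P4ha2, a collagen prolyl hydroxylase, -0.91. In rows 1 and 2 they were -2.87 and -0.43 for Angptl4, -2.0 and 0.17 for Car12, and -1.58 and -0.24 for P4ha2. Of 7 genes of the oxygen-sensing machinery, 3 were lower and 4 higher: Vhl, which tags the factors for destruction, had -0.65, Epas1, which encodes HIF-2 alpha, -0.63, and Hif1a 0.37. Their values in rows 1 and 2 were -1.04 and -0.27 for Vhl, -1.46 and 0.19 for Epas1, and 0.80 and -0.06 for Hif1a. Of the 7 genes, 2 lay below in both rows and 2 above in both. For 0 of the 7 did the KO arrays lie wholly below or above the WT arrays. The counts and values of these 3 lists were taken after loess, on which the members' direction in row 1 depended.

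Between the cell types the largest differences of the other glycolysis and hypoxia-induced genes exceeded those of the members. These lists hold 21 and 27 genes against 9 members, and a longer list can give a larger extreme. The median of CD24+CD29hi minus macrophages was -0.29 over 21 other glycolysis genes and -0.23 over 27 other hypoxia-induced genes. It was -0.32 over the 9 members measured on all 6 arrays and -0.47 over 9 genes of the oxygen-sensing machinery. Over all genes the median was -0.04. The members' -0.32 is the value of Egln3 itself, which includes the weak KO 1 spot. How the members' median ranks beside those of the other lists is therefore not settled. Pfkfb4 was -1.37 and -1.33 in the CD24+CD29hi cells and 0.76 to 2.33 in macrophages. Slc16a3, a lactate exporter, was -2.12 and -1.88 against 0.73 to 1.23. Pfkfb3 was 1.51 and 1.38 against 3.42 to 4.66. Hmox1, which breaks down haem, was -2.44 and -2.31 against 0.05 to 2.41. Angptl4 was 3.92 and 3.50 against -0.34 to 2.53, and Ak4, a mitochondrial adenylate kinase, was -0.55 and -0.49 against -2.92 to -0.91. None of these 6 genes overlapped between the cell types, but they were picked for the largest differences, which makes an overlap unlikely. Of the 21 other glycolysis genes, 9 lay below all macrophage arrays and 2 above, against 19.2% and 16.0% of all genes. Of the 27 other hypoxia-induced genes, 11 lay below and 5 above.

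Between replicates 2 and 1, the largest differences in these lists were -1.26 for Pkm, the pyruvate kinase, -1.18 for Tpi1 and -1.08 for Eno2 among glycolysis genes. Hmox1 had 1.92, P4ha2 -1.19 and Ak4 -1.13 among the hypoxia-induced genes, and Epas1 had -2.39, Vhl 1.1 and Hif1a 0.95 in the oxygen-sensing machinery. None passed limma's adjusted threshold. Between Dll1-high and Dll1-low cells no listed gene of these pathways differed 2-fold. Dll1-high was lower for 21 of 27 other hypoxia-induced genes (median -0.07), 12 of 21 other glycolysis genes (-0.04) and 5 of 9 genes of the oxygen-sensing machinery (-0.02). Of all genes, 56.0% were lower. The largest differences there were 0.32 for Ldhb, -0.29 for Eno2, -0.24 for Slc16a3, -0.53 for Ddit4, an inhibitor of mTOR signalling, -0.43 for Car12 and 0.42 for Angptl4. Arnt, the partner subunit of the hypoxia-inducible factors, had -0.58, Hif3a -0.37 and Epas1 -0.28. Between the cell types, CD24+CD29hi minus macrophages was -2.06 for Vhl, -1.53 for Egln2 and -1.04 for Arnt.

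The gene with a symbol whose pattern over the 6 arrays was nearest to the mean of the members, each centred on its own mean, was Alad, an enzyme of haem synthesis. Its distance was 0.161 log2 units, against a median of 1.47 over 17597 genes. Alad read -2.14 and -2.19 on the Dll1-high and Dll1-low arrays, -2.06 and -2.37 on KO 1 and KO 2, and -1.33 and -2.42 on WT 1 and WT 2. The 4 nearer features carry only design names. This order rests on the weak Egln3 spot: with Egln3 left out of the mean, Alad was at rank 247 with a distance of 0.329, and the nearest gene with a symbol was Adal (0.0721) among 17482. The members' own distances from that mean ran from 0.635 for Vegfa to 2.81 for Egln3.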

How the data were processed

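Two-colour array scanner files of 6 samples were used. Per the file headers, the median spot signals and local background are intensity values. The headers name Agilent Feature Extraction, version 12.0.2.2 on macrophage arrays and 11.0.1.1 on the other pair (11.0 in the submitters' processing notes). The scanner's ratio of processed signals is on a log10 scale, per the file headers. Deposited log2 ratios, in the authors' own value table, served as an alternative.

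Median signals were background-corrected (normexp, offset 50) and loess-normalised within each array, with control and flagged spots at weight 0, in limma 3.58.1 under R 4.3.3. Spots of a probe were averaged, and the probe with the highest mean signal is a gene's main probe. Of the probes, 27509 were named through RefSeq accessions and 28172 by the array design. Genes above background on at least 2 macrophage arrays were tested with lmFit and eBayes, with p-values adjusted over all genes by Benjamini-Hochberg and a threshold of 0.05. The test was checked on simulated data. The number of arrays limits the precision. Named genes outside the set are the 3 with the largest difference in each list and comparison. The members, lists and rules were chosen with earlier results of these data known. Alternatives were processed signals, the value table, median centring, no background correction, Cy5 alone, the mean of all probes, other filters, a replicate block, a robust trended fit, leaving out each macrophage array, and leaving out weak reference spots, chosen after the data were seen.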

Additional observations from a re-analysis of the deposited data

How the results depend on the processing

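No member passed the threshold between KO and WT macrophages under any alternative run, and the count of genes that passed was 0 in each, the replicate block included (0 of 24766 genes). The numbers are not stated to pair the arrays; deviations of the same-numbered arrays correlated at 0.595 across genes, over 2 pairs only.

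Signs of KO minus WT were less stable. With median centring the differences were 0.86 for Hk2, 0.51 for Aldoa, 0.18 for Pgk1, 0.50 for Eno1, 1.11 for Ldha, 0.91 for Slc2a1, 0.49 for Vegfa and 0.35 for Bnip3, with medians of 0.68 over the 10 members, 0.68 over the enzymes and 0.70 over the other targets. With Cy5 alone they were 0.27 for Ldha, 0.12 for Slc2a1 and -1.88 for Egln3. Leaving out each array in turn gave ranges of -2.09 to 0.32 for Aldoa, -1.96 to 0.29 for Eno1, -0.79 to 0.0056 for Hk2, -0.50 to 0.0082 for Ldha, -0.13 to 0.55 for Pfkp, -0.88 to 2.92 for Egln3, -0.63 to -0.056 for Slc2a1, -1.28 to -0.064 for Vegfa, -1.74 to -0.059 for Bnip3 and -2.18 to -0.085 for Pgk1. The median over the 10 members ranged from -1.03 to 0.0069. With 1 array left in a group, that array is assumed to vary like the others. Without weak reference spots Egln3 had -0.88, and the median was -0.75 over the 10 members and -0.78 over the other targets. Within row 2 the differences were 0.29 for Hk2, 0.053 for Aldoa, 0.010 for Eno1, 0.082 for Ldha, 0.077 for Vegfa and -0.15 for Egln3, and the members' median was -1.25 in row 1 and 0.018 in row 2.

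For replicate 2 minus replicate 1, the scanner's processed signals and the value table both gave 0.039 for Hk2 and 0.029 for Pfkp, with 1803 and 1729 genes past the threshold in place of 0, and a filter on every array gave 210. Median centring gave 0.75 for Hk2, 0.12 for Pfkp, 0.15 for Pgk1, 1.03 for Ldha, 0.24 for Vegfa and 0.065 for Bnip3. Cy5 alone gave 0.89 for Hk2 and 0.13 for Egln3, and the mean of all probes 0.067 for Pfkp and 0.028 for Vegfa. Between Dll1-high and Dll1-low cells, 1005 and 1006 genes differed 2-fold with processed signals and the value table, against 63, and the median of the other targets was -0.0023 with Cy5 alone. Members that did not overlap between cell types numbered 2 with processed signals, the value table and the mean of probes, and 3 with median centring and with Cy5 alone, against 1. The cause of these changes was not tested. Of the member values, 105 of 108 were well above background in Cy5.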
